A study of Brachypodium distachyon with 214 samples.

Results

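A set of 24 genes changed with drought in the leaves of the grass accession Bd21 and changed less in the accession Bd3-1, and 8 of them rose and 16 fell in Bd21. They were chosen from 12203 nuclear genes with a mean of at least 5 CPM (the count divided by the library's total, times 1000000) over the 4 groups of plants, out of 32439 nuclear rows in a table of 32523. A gene entered the set when the log2 ratio of its drought mean to its control mean was at least 0.6 in absolute value in Bd21 and below 0.25 in Bd3-1. These ratios are therefore a description of how the genes were chosen. Calls on the same contrasts are given once below, and nothing is read from them. The number of genes depends on the scaling: with CPM on TMM-scaled library sizes (trimmed mean of M-values) 4 rose and 18 fell, of which 3 and 12 are among the 24, and with group medians in place of means 4 rose and 14 fell, of which 3 and 7 are.

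Brachypodium distachyon is an annual grass related to wheat and barley. Bd21, the source of the species' reference genome, and Bd3-1 are inbred accessions, so each is represented by 1 line and a difference between them is a difference between these lines. Soil of the control plants stayed at 85% of field capacity, its water content once drained. From day 33 after sowing the soil of the droughted plants was let down in daily steps to 55% over 6 days. Each library came from the leaves of 1 plant. The Bd21 groups held 48 libraries under control and 49 under drought, and the Bd3-1 groups 58 and 59. The library labelled Bd3-1 drought replicate 59 is left out by the rule and was left out of the fits. It stood nearer to droughted Bd21 than to droughted Bd3-1 for most of these genes (below). It also lay within the range of the other droughted Bd3-1 plants for most of them, and 58 droughted Bd3-1 libraries remained.

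When soil dries, leaves accumulate the hormone abscisic acid, close their stomata and induce genes for protective proteins such as dehydrins, while genes for growth and photosynthesis are often lowered. Most of this programme is shared among accessions of a species. A response seen in 1 accession and not in another is called a genotype by environment interaction. Reads were counted with RSEM, which splits reads of ambiguous origin between their possible transcripts, so that such genes receive counts that are not whole numbers.

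The library totals ranged from 0.525 M to 8.37 M counts with a median of 1.92 M, and plastid sequences took 4.76% to 9.66% of them. The leaf gene Bradi4g31257, a chlorophyll a-b binding protein, was detected in all 214 libraries with a median of 59.8 CPM. The mean count of the 24 genes per library ran from 9.82 to 966 with a median of 21.4, so that the lower genes rest on few counts per plant. None of the 24 is named in the study's text, and the sources used here give none of them a name or a role. They are therefore given by locus, whose first digit is the chromosome.

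The choice was a narrow one. In Bd21, 371 genes of this level rose and 291 fell past the threshold. In Bd3-1, 311 of the 371 and 225 of the 291 passed the same threshold in the same direction. Of the 24 genes, 7 of the 8 rising and 14 of the 16 falling had a Bd3-1 ratio of the same sign as in Bd21. In edgeR's quasi-likelihood test across all 26136 tested genes, with Benjamini-Hochberg adjustment and a threshold of 0.05, drought passed in Bd21 for 24 of the 24 genes, against 22.7% of all tested genes. It passed in Bd3-1 for 4, against 30.9%. The difference of the drought effects, the interaction, passed a threshold of 0.1 for 10, against 1.78%. The genes were chosen on these contrasts, so nothing is read from the counts. The 4 called in Bd3-1 were Bradi2g27987, Bradi2g03886, Bradi4g25540 and Bradi1g35520. Leaves hold several cell types, and fewer cells of a type and less RNA per cell cannot be told apart in such samples.

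**Figure D1:**
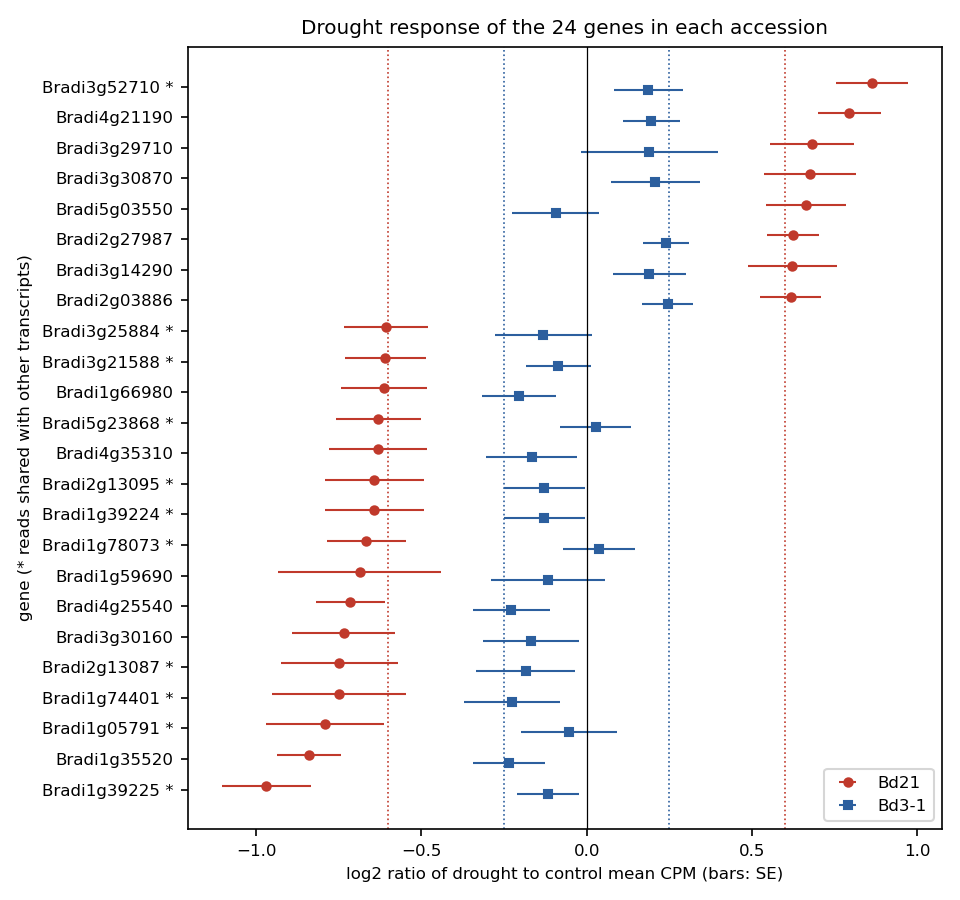
Log2 ratio of drought to control mean CPM of the 24 genes in Bd21 (circles) and Bd3-1 (squares), with the SE of the ratio over plants as bars, and the thresholds of 0.6 and 0.25 as dotted lines. An asterisk marks genes with reads shared with other transcripts: 10 of the 16 falling genes and 1 of the 8 rising genes carry it, and 21 of the 24 squares lie on the same side of 0 as the circle of their gene.

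Among the 8 rising genes, Bradi3g52710 had the largest ratio. Its lowest, median and highest values were 2.38, 7.69 and 19.0 CPM under control and 7.60, 14.1 and 26.6 CPM under drought in Bd21. In Bd3-1 they were 3.54, 8.61 and 22.7 CPM in control plants and 5.57, 10.2 and 28.0 CPM under drought. The ranges overlapped in both accessions, and 47 of 49 droughted Bd21 plants and 41 of 58 droughted Bd3-1 plants lay above the control median of their accession. The log2 ratio was 0.86 ± 0.11 (SE) in Bd21 and 0.19 ± 0.11 in Bd3-1. All estimates of this gene but 1 were not whole, and in 100% of those libraries its count and that of Bradi3g52697 summed to a whole number within 0.021. The level of this gene is thus uncertain. The sum does not depend on how reads were divided within the pair. It went from 50.5 ± 9.97 (SD, n = 48) to 75.8 ± 12.9 CPM (n = 49) in Bd21 and went on average from 44.3 ± 8.12 (n = 58) to 49.4 ± 8.31 CPM (n = 58) in Bd3-1, log2 ratios of 0.59 ± 0.05 and 0.16 ± 0.05. The pair taken as 1 gene would thus lie just under the threshold in Bd21.

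Bradi4g21190 had whole counts and the second largest rise. Its lowest, median and highest values were 3.36, 12.3 and 24.8 CPM under control and 6.37, 22.1 and 33.6 CPM under drought in Bd21. For Bd3-1 they were 3.18, 8.28 and 13.6 CPM under control and 4.13, 9.73 and 15.4 CPM under drought. Of the 49 droughted Bd21 plants 41 lay above every Bd3-1 plant of either treatment, although the ranges overlapped. This count leaves out the library labelled Bd3-1 drought replicate 59, which was at 16.6 CPM. The log2 ratio was 0.79 ± 0.10 in Bd21, with 45 of 49 plants above the control median, and 0.20 ± 0.09 in Bd3-1, with 35 of 58.

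Bradi5g03550 was the only rising gene with a Bd3-1 ratio below 0. Its values ran from 2.06 over a median of 5.82 to 11.3 CPM in Bd21 control plants, and from 3.55 over 9.28 to 23.3 in droughted Bd21. In Bd3-1 they ran from 0.550 over 3.64 to 12.0 CPM in control plants and from 0 over 3.99 to 8.97 under drought. The groups overlapped, with 11 of 49 droughted Bd21 plants above every Bd3-1 plant. This count leaves out the library labelled Bd3-1 drought replicate 59, which was at 12.5 CPM. The ratios were 0.66 ± 0.12 in Bd21 and -0.09 ± 0.13 in Bd3-1, where 30 of 58 droughted plants lay above the control median.

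The other 5 rising genes had ratios of 0.62 to 0.68 in Bd21 and of 0.19 to 0.24 in Bd3-1. With TMM-scaled CPM their ratios in Bd21 were 0.54 to 0.61, and only that of Bradi3g29710 stayed past 0.6. Bradi2g27987 averaged 16.6 ± 5.08 CPM under control and 25.6 ± 5.83 under drought in Bd21, against 16.4 ± 4.11 and 19.3 ± 5.10 in Bd3-1, and 47 of 49 and 42 of 58 droughted plants lay above the control median. Bradi2g03886 averaged 6.32 ± 2.29 CPM under control and 9.69 ± 2.39 under drought in Bd21, against 11.1 ± 3.44 and 13.1 ± 3.38 in Bd3-1, with 44 and 46 plants above it. For these 2 genes the direction was the same in the accessions and the share of plants above the control median was high in each. Bradi3g14290 averaged 7.50 ± 3.68 CPM under control and 11.5 ± 5.01 under drought in Bd21, against 9.84 ± 4.48 and 11.2 ± 4.05 in Bd3-1. Bradi3g30870, at 3.47 ± 1.65 and 5.55 ± 2.61 CPM in Bd21 and 5.15 ± 2.85 and 5.94 ± 2.65 in Bd3-1, was the lowest of the set in counts.

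The Bd3-1 ratio of Bradi3g29710 depended on a few control plants. Its lowest, median and highest values were 0.955, 3.96 and 8.30 CPM under control and 0, 7.22 and 13.3 CPM under drought in Bd21. The Bd3-1 values were 0, 3.81 and 30.3 CPM under control and 1.11, 5.62 and 11.4 CPM under drought. The highest Bd3-1 control plant exceeded every droughted plant. The log2 ratio in Bd3-1 was 0.19 ± 0.21 from the means, 0.56 from the medians and 0.32 without Bd3-1 control replicate 13, the highest library, and 43 of 58 droughted Bd3-1 plants lay above the control median.

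**Figure D2:**
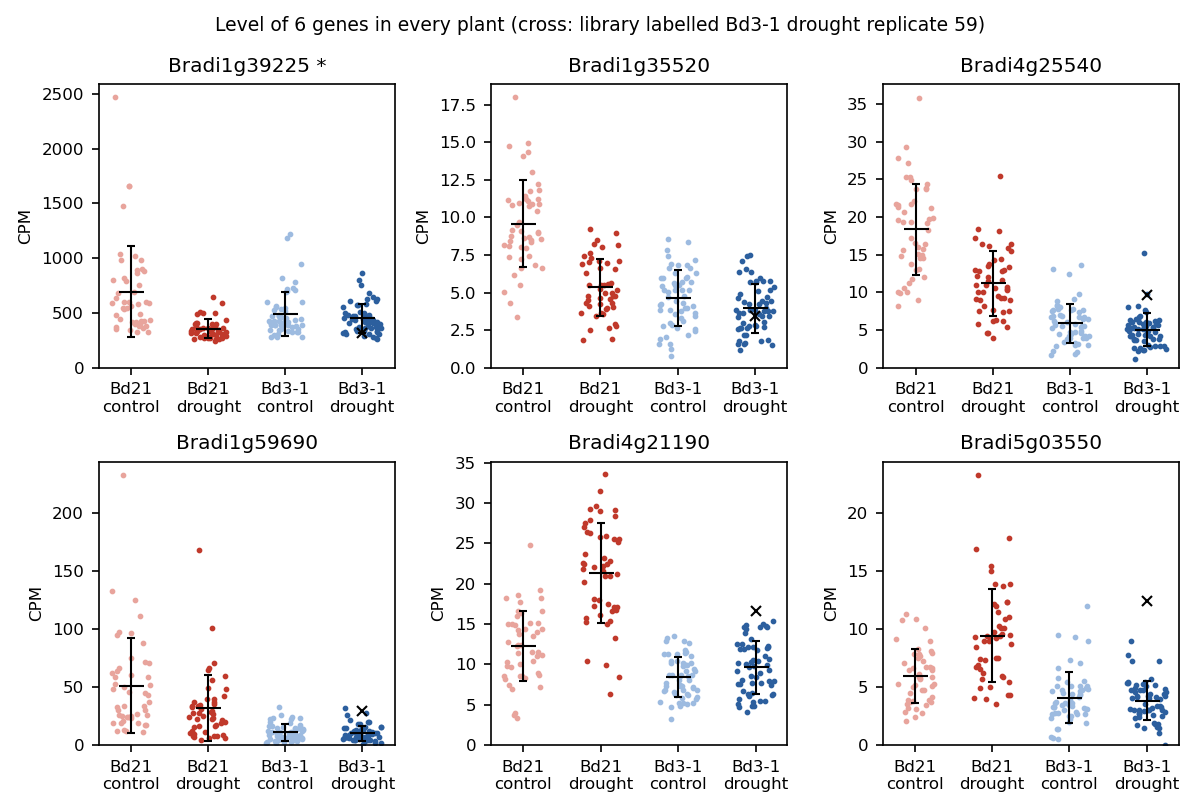
CPM of 6 of the genes in every plant, by group, with the mean and SD as bars and the library labelled Bd3-1 drought replicate 59, left out of the means, as a cross. The upper row and Bradi1g59690 fell in Bd21, and Bradi4g21190 and Bradi5g03550 rose there, and the plants of the groups overlap in each panel. In Bradi5g03550 the cross, at 12.5 CPM, lies above the 8.97 CPM of the highest other droughted Bd3-1 plant.

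Of the 16 falling genes, 6 had mostly whole counts. Bradi1g35520 had values of 3.36, 9.04 and 18.0 CPM (lowest, median and highest) under control and of 1.87, 4.99 and 9.23 CPM under drought in Bd21. The Bd3-1 values were 0.757, 4.74 and 8.57 CPM under control and 1.20, 3.81 and 7.48 CPM under drought. Droughted Bd21 plants came down to about the level of Bd3-1 control plants. The ratio was -0.84 ± 0.10 in Bd21, with 48 of 49 plants under the control median, and -0.23 ± 0.11 in Bd3-1, with 42 of 58.

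Bradi4g25540 had values of 8.25, 18.7 and 35.8 CPM under control and 3.95, 10.8 and 25.4 CPM under drought in Bd21. Those of Bd3-1 were 1.71, 5.62 and 13.7 CPM under control and 1.21, 5.00 and 15.2 CPM under drought. Its fall in Bd21 (-0.71 ± 0.10, 48 of 49 plants under the control median) left droughted Bd21 above Bd3-1 on average. In Bd3-1 the ratio was -0.23 ± 0.12, with 38 of 58 plants under it.

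Bradi1g59690 varied widely among Bd21 plants. Its values were 11.6, 40.0 and 233 CPM under control and 4.20, 27.2 and 168 CPM under drought in Bd21. In Bd3-1 plants they were 1.37, 9.85 and 32.7 CPM under control and 0.603, 7.79 and 31.9 CPM under drought. The ranges of the 4 groups overlapped. The ratio was -0.69 ± 0.25 in Bd21 and -0.12 ± 0.17 in Bd3-1, and the SE in Bd21 was the largest of the set. Its SD was 79.6% of the mean under control and 88.4% under drought in Bd21.

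Bradi3g30160 averaged 68.6 ± 43.1 CPM under control and 41.2 ± 16.8 under drought in Bd21, against 68.5 ± 33.5 and 61.0 ± 35.9 in Bd3-1, and Bradi4g35310 averaged 166 ± 91.7 and 107 ± 48.8 CPM in Bd21, against 156 ± 69.7 and 139 ± 79.7 in Bd3-1. Both started at similar levels in the accessions, and 46 and 42 of 49 droughted Bd21 plants lay under the control median. Bradi1g66980 averaged 13.8 ± 5.69 CPM under control and 8.99 ± 4.23 under drought in Bd21, against 9.21 ± 3.56 and 7.98 ± 3.54 in Bd3-1.

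The remaining 10 falling genes had estimates that were not whole in at least 20% of the libraries with a value above 0, so their levels are uncertain. This was so of 62.5% of the falling genes, of 18.6% of the 12203 genes of the level, and of 15.6% of the 225 genes that fell past the threshold in both accessions. It was also so of 81 of the 84 plastid rows. Bradi1g39225 was the highest of the 24. Its lowest, median and highest values were 325, 584 and 2473 CPM under control and 240, 336 and 643 CPM under drought in Bd21. Bd3-1 plants had 278, 425 and 1221 CPM under control and 258, 435 and 862 CPM under drought. The highest Bd21 control plant stood far above every plant of the other groups, the ranges overlapped, and 47 of 49 droughted Bd21 plants lay under the control median. The ratio was -0.97 ± 0.13 in Bd21 and -0.12 ± 0.09 in Bd3-1, where 27 of 58 did.

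Bradi1g39224, the neighbour of Bradi1g39225 in locus order, and Bradi2g13095 had identical values in every library. They were counted as 1 measurement where distinct genes are named and in the correlations, which left 23 distinct genes. Counts and medians over the 24 genes, the 16 falling genes or the 10 with shared reads hold this measurement 2 times. They averaged 10.5 ± 6.22 CPM under control and 6.70 ± 2.68 under drought in Bd21, against 9.06 ± 5.02 and 8.29 ± 2.73 in Bd3-1. Bradi2g13087 lies near Bradi2g13095, with 2 loci between them. It averaged 72.6 ± 46.4 CPM under control and 43.2 ± 24.4 under drought in Bd21, against 40.6 ± 22.5 and 35.7 ± 20.3 in Bd3-1.

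Bradi1g78073 and Bradi5g23868 were the falling genes with a Bd3-1 ratio above 0. Bradi1g78073 averaged 168 ± 77.3 CPM under control and 106 ± 35.5 under drought in Bd21, against 135 ± 57.3 and 139 ± 55.0 in Bd3-1, ratios of -0.67 ± 0.12 and 0.04 ± 0.11. Bradi5g23868 averaged 60.1 ± 30.7 CPM under control and 38.8 ± 14.0 under drought in Bd21, against 48.2 ± 20.3 and 49.1 ± 19.1 in Bd3-1, ratios of -0.63 ± 0.13 and 0.03 ± 0.11. In both, the Bd21 fall crossed the Bd3-1 control level. Bradi3g21588 shared reads with a single row, Bradi3g21597, since the sum of the pair was whole in 100% of the libraries with a split. The partner held under 1 CPM on average in every group. The sum averaged 291 ± 145 CPM under control and 191 ± 61.0 under drought in Bd21, against 191 ± 62.0 and 180.2 ± 71.6 in Bd3-1, log2 ratios of -0.61 ± 0.12 and -0.09 ± 0.10, so the division of reads moved this gene little.

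Bradi3g25884, Bradi1g74401 and Bradi1g05791 completed the set. Bradi3g25884 averaged 43.8 ± 19.1 CPM under control and 28.8 ± 12.4 under drought in Bd21, against 39.5 ± 24.3 and 36.0 ± 17.2 in Bd3-1, and Bradi1g74401 averaged 8.37 ± 6.47 and 4.98 ± 2.98 CPM in Bd21, against 5.54 ± 2.89 and 4.74 ± 2.63. Bradi1g05791 averaged 16.3 ± 11.1 CPM under control and 9.43 ± 4.95 under drought in Bd21, against 9.79 ± 5.28 and 9.44 ± 5.19 in Bd3-1. It was at 0 in 21 libraries of the 213, unlike the other falling genes, of which Bradi1g74401 was at 0 in 1.

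A single plant weighed on the falling genes. Bd21 control replicate 1 was the highest Bd21 control library for 8 of the 16. Its plastid share, 6.66%, its drought score, defined below, of 2.18 and its total of 2.09 M counts lay within the ranges of the other Bd21 control plants. Without it 10 of the 16 falling genes stayed past the Bd21 threshold, and Bradi1g39225 had a ratio of -0.89. The 6 that did not, Bradi3g25884, Bradi3g21588, Bradi1g66980, Bradi5g23868, Bradi1g39224 and Bradi2g13095, had ratios of -0.598 to -0.536. The SD of the 9 distinct falling genes with shared reads was a smaller percentage of the mean under drought than under control in Bd21 for 9 of 9, with medians of 40.0% and 59.5%, and for 6 of 9 without this plant, with a control median of 48.8%. In Bd3-1 it was smaller for 5 of 9. Among the 12203 genes of the level it was smaller under drought for 60.8% in Bd21 and 59.8% in Bd3-1.

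The genes just inside and just outside the thresholds had nearly equal ratios. Bradi2g03886 and Bradi3g14290 were nearest inside the Bd21 threshold among rising genes, at 0.62 each, and Bradi1g56690 and Bradi2g49447 nearest outside, at 0.596 and 0.58. Among falling genes Bradi3g25884 and Bradi3g21588, at -0.61 each, were nearest inside and Bradi1g05829 and Bradi3g09660, at -0.59 and -0.58, nearest outside. At the Bd3-1 threshold, Bradi2g03886 and Bradi2g27987 were inside at 0.24 each, and Bradi4g27801 and Bradi4g20520 outside at 0.27 each. On the falling side Bradi1g35520 and Bradi4g25540 were inside at -0.23 each, and Bradi5g27687 and Bradi5g08190 outside at -0.27 and -0.30. Their ratios in Bd21, -1.01 for Bradi5g27687 and -1.04 for Bradi5g08190, were further from 0 than those of the 16.

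The plants were grown in 4 experiment batches, as the study's table of leaf traits gives them. Within batches the Bd21 ratio had the same sign in all 4 for 24 of the 24 genes. They were chosen on this ratio over the same plants, so nothing is read from this count. The Bd3-1 ratio stayed within the threshold of 0.25 in all 4 batches for 2 of the 24, Bradi5g03550 and Bradi1g05791. The Bd21 ratio was past 0.6 in all 4 batches for 4 genes, Bradi3g52710, Bradi4g21190, Bradi3g29710 and Bradi1g35520. Over the batches the ratio of Bradi1g35520 lay between -0.91 and -0.79 in Bd21 and between -0.30 and -0.09 in Bd3-1, and that of Bradi1g39225 between -1.35 and -0.49 and between -0.47 and 0.15. The widest range in Bd21 was that of Bradi1g66980, from -1.15 to -0.12. The library labelled Bd3-1 drought replicate 59 was nearer to the droughted Bd21 mean than to the droughted Bd3-1 mean, on the scale of log2(CPM + 1), for 20 of the 24 genes. It lay within the range of the other droughted Bd3-1 plants for 21 of the 24, and the shares over all genes were not computed. Its value of Bradi1g59690 was 29.1 CPM, against means of 31.8 in droughted Bd21 and 10.1 in droughted Bd3-1.

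The accession effect averaged over the treatments is not one of the contrasts of the rule and could be tested, although the minimum of 5 CPM acts on the level. Bradi5g03550 and Bradi1g35520 averaged under 5 CPM in both Bd3-1 groups and reached the minimum through Bd21, and Bradi3g30870, at 3.47 and 5.55 CPM in Bd21, reached it through Bd3-1. Their accession effects are given as a description with no test, and nothing is read from counts and medians that include them. The contrast was the mean of the Bd21 groups minus that of the Bd3-1 groups, on the log2 scale of the fit. It passed an adjusted p of 0.05 for 14 of the 24 genes, 11 of them higher in Bd21 and 3 higher in Bd3-1, against 46.2% of all tested genes (23.9% higher in Bd21 and 22.3% higher in Bd3-1) and 56.5% of the genes of the level. Higher in Bd21 were 8 of the 16 falling and 3 of the 8 rising genes, and higher in Bd3-1 were 1 and 2. The median effect was 0.21 over the falling genes, 0.05 over the rising genes and -0.01 over the genes of the level. All reads were mapped to transcripts of Bd21, on which Bd3-1 reads with sequence differences may be lost, and the part of this in these values was not tested.

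The accession effects furthest from 0 were those of the falling genes Bradi1g59690 and Bradi4g25540, which had whole counts. Bradi1g59690 was higher in Bd21 by 1.98 ± 0.14 (SE, edgeR adjusted p = 4.8e-33), and 48 of 48 Bd21 control plants lay above the Bd3-1 control median. Bradi4g25540 was higher by 1.43 ± 0.07 (adjusted p = 1.8e-47), with 48 of 48 above it. The rising gene Bradi4g21190 was higher in Bd21 by 0.85 ± 0.06 (adjusted p = 5.5e-29). Of the genes that reached the minimum through 1 accession, Bradi5g03550 had an effect of 0.93 ± 0.08, Bradi1g35520 of 0.72 ± 0.07 and Bradi3g30870 of -0.32 ± 0.09. Bradi2g03886 was the largest in the other direction, at -0.60 ± 0.06 (adjusted p = 1.0e-19). Bradi1g39225 differed by 0.08 ± 0.07 (adjusted p = 0.363), and Bradi1g78073 and Bradi5g23868 by -0.04 ± 0.08 and 0.00 ± 0.09. Of the 10 falling genes with shared reads 4 passed, with a median of 0.04, and of the 6 with whole counts 5 passed, with a median of 0.55. The share over all tested genes was 46.2%. Bradi1g35520 is among the 6, and the 10 hold the identical rows Bradi1g39224 and Bradi2g13095, so nothing is read from these counts and medians.

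In the control plants alone, which the rule used, 16 of the 16 falling genes had a higher mean in Bd21 than in Bd3-1, and 12 of them fell in droughted Bd21 below the Bd3-1 control mean. Of the 8 rising genes, 3 had the higher control mean in Bd21 and 6 the higher drought mean. For the falling gene Bradi3g30160 the control means were nearly equal, at 68.57 CPM in Bd21 and 68.55 in Bd3-1. The rule chose genes on these means and the shares over the genes of the level were not computed, so nothing is read from these counts.

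A second question independent of the rule is whether a gene follows the strength of the drought response among plants of 1 group. A drought score was taken as the mean log2(CPM + 1), with TMM scaling, of 33 genes that rose at least 3-fold in both accessions, none of which is among the 24. It averaged 2.36 ± 0.21 (SD) under control and 4.36 ± 0.45 under drought in Bd21. In Bd3-1 it averaged 2.23 ± 0.16 under control and 4.42 ± 0.45 under drought. The score genes were chosen for a rise in both accessions over these same plants, so nothing is read from the likeness of the means. The spread among droughted plants was similar in the accessions. Within each group the log2 change of each gene per unit of the score was fitted across all genes.

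In droughted Bd21 the slope passed for 1 of the 24 genes, against 2.74% of all tested genes and 4.70% of the genes of the level, and in droughted Bd3-1 for 2, against 6.75% and 12.3%. Bradi1g59690 fell by 1.21 ± 0.27 (SE) per unit of the score in droughted Bd21 (edgeR adjusted p = 0.0015), and had a slope of -0.40 ± 0.32 in droughted Bd3-1 (adjusted p = 0.579). In droughted Bd3-1 Bradi3g30160 fell by 0.89 ± 0.17 (adjusted p = 4.2e-05) and Bradi4g35310 by 0.70 ± 0.19 (adjusted p = 0.0072), the latter by 0.47 (adjusted p = 0.278) with a score over 17 drought genes the study names. Their slopes in droughted Bd21 were -0.54 ± 0.20 (adjusted p = 0.146) and -0.36 ± 0.21 (adjusted p = 0.458). These genes, chosen for a weak mean response in Bd3-1, were thus lower in the droughted Bd3-1 plants with the higher scores. Negative slopes were not particular to droughted plants. In control plants, where none was called, they were -0.89 ± 0.41 and -0.72 ± 0.46 in Bd21, and -1.03 ± 0.54 and -1.11 ± 0.60 in Bd3-1. The difference of the slopes of the accessions under drought passed for 0 of the 24 genes by edgeR's test, the only tool run on it, and 1 of the 24, Bradi4g21190, had an unadjusted p under 0.05, against 0.0115% and 5.93% of all tested genes. Bradi4g21190 had the largest positive slope in droughted Bd21, 0.41 ± 0.13 (adjusted p = 0.0595), against 0.01 ± 0.14 in droughted Bd3-1. The median slope was -0.20 in droughted Bd21 and -0.11 in droughted Bd3-1 over the falling genes, 0.27 and 0.06 over the rising genes, and 0.00 in both over the genes of the level.

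In control plants the score varied less. The slope passed in Bd21 control plants for Bradi1g39224 with its identical row Bradi2g13095 (-1.90 ± 0.42, adjusted p = 0.0122) and for Bradi1g39225 (-1.38 ± 0.35, adjusted p = 0.0358), against 0.421% of all tested genes. These calls did not hold with the score over the study's 17 genes (-0.20 and -0.21, adjusted p = 1.0 each) or with experiment batch and plate as terms (-1.43 and -1.33, adjusted p = 0.0810 and 0.0621), and without Bd21 control replicate 1 the slope of Bradi1g39225 was -1.09 (adjusted p = 0.138). In Bd3-1 control plants it passed for Bradi3g29710 (3.76 ± 0.54, adjusted p = 2.8e-08), against 1.49%. It was 2.76 ± 0.63 (adjusted p = 0.0043) without Bd3-1 control replicate 13 and 2.29 ± 0.65 (adjusted p = 0.160) with the study's score genes.

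**Figure D3:**
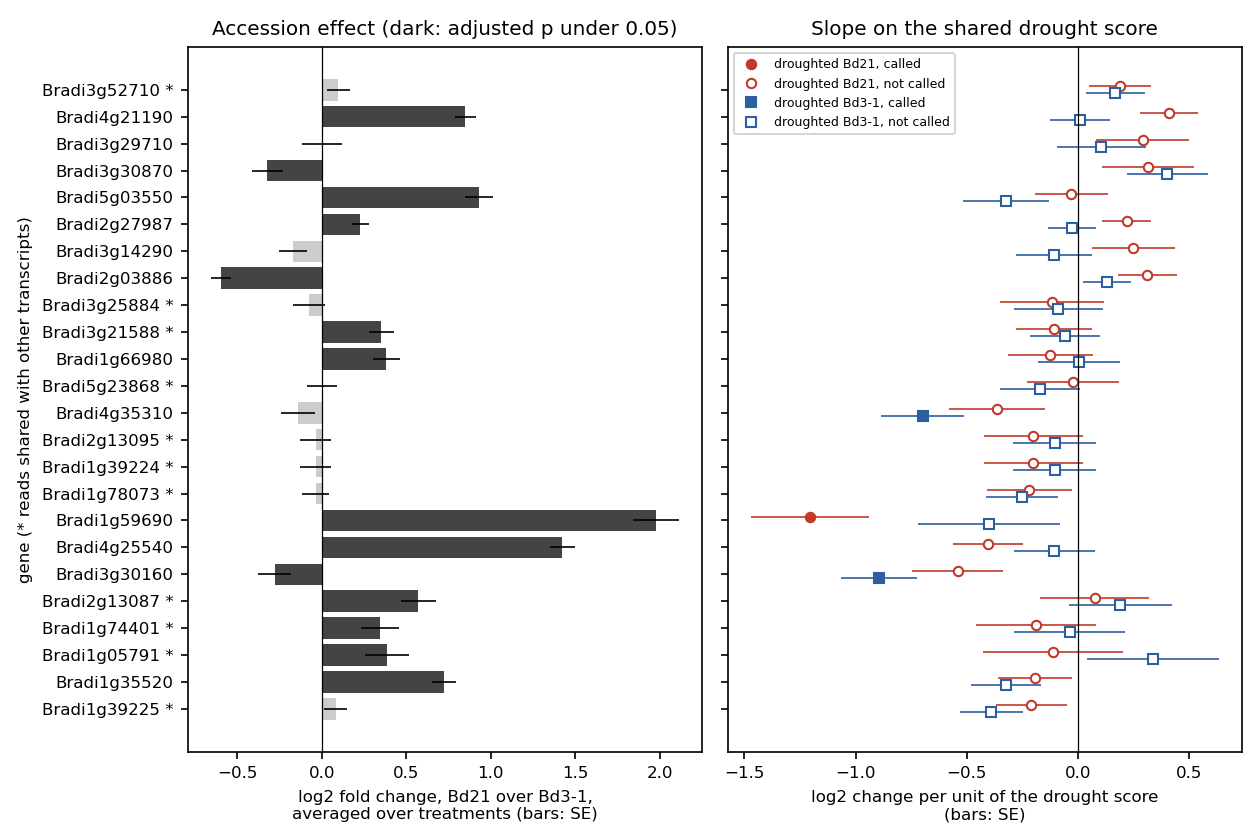
Left, log2 fold change of each gene between Bd21 and Bd3-1 averaged over treatments, with SE, dark where the adjusted p was under 0.05 (14 of 24, including 3 that reached the minimum of 5 CPM through 1 accession). Right, log2 change per unit of the shared drought score among droughted plants of each accession, with SE, filled where called: Bradi1g59690 in Bd21 and Bradi3g30160 and Bradi4g35310 in Bd3-1.

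Whether the genes varied together among plants of 1 group was asked by correlating each of the 23 distinct genes with every gene of the level within each group, on log2(TMM-scaled CPM + 1). This gave 1122584 relations, over which p-values from 100000 permutations (2-sided) were adjusted. The smallest p they can give is 1e-05, which adjusts to 0.0027 for r and 0.0039 for rho. Of the 1012 relations among the 23 genes, 114 were positive and 7 negative at an adjusted p under 0.05, against 1.31% and 0.898% of all relations.

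Most of these joined falling genes with shared reads, of whose 144 relations 102 were called and positive, against 1.36% of the relations of these genes with all genes of the level. Called pairs numbered 30 of 36 under control and 22 under drought in Bd21, and 26 and 24 in Bd3-1. Bradi1g05791, singled out after its values were seen, had 4 of its 32 relations called, and the other 8 genes had 98 of their 112 called, with r from 0.06 over a median of 0.63 to 0.88. Reads divided among several rows can join their counts, and that part was not tested. Among these genes only Bradi3g21588 had a single row that made whole sums in 100% of the libraries with a split. For the rest the best single row did so in 9.95% to 16.0% of them, and none of these rows is in the set. With the summed plastid counts these 9 genes had r between -0.05 and 0.52 over the groups, with a median of 0.37, and with the log2 library total between -0.18 and 0.22. Bradi1g78073 and Bradi3g25884 were the closest. Their r was 0.85 (rho = 0.84) under control and 0.77 (0.77) under drought in Bd21, and 0.88 (0.87) and 0.79 (0.77) in Bd3-1, with a permutation p of 1e-05 and an adjusted p of 0.0027 in each. Leaving out the 2 plants with the most extreme values of Bradi1g78073, r was 0.81, 0.73, 0.86 and 0.77, and within experiment batches it ran from 0.63 to 0.92.

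**Figure D4:**
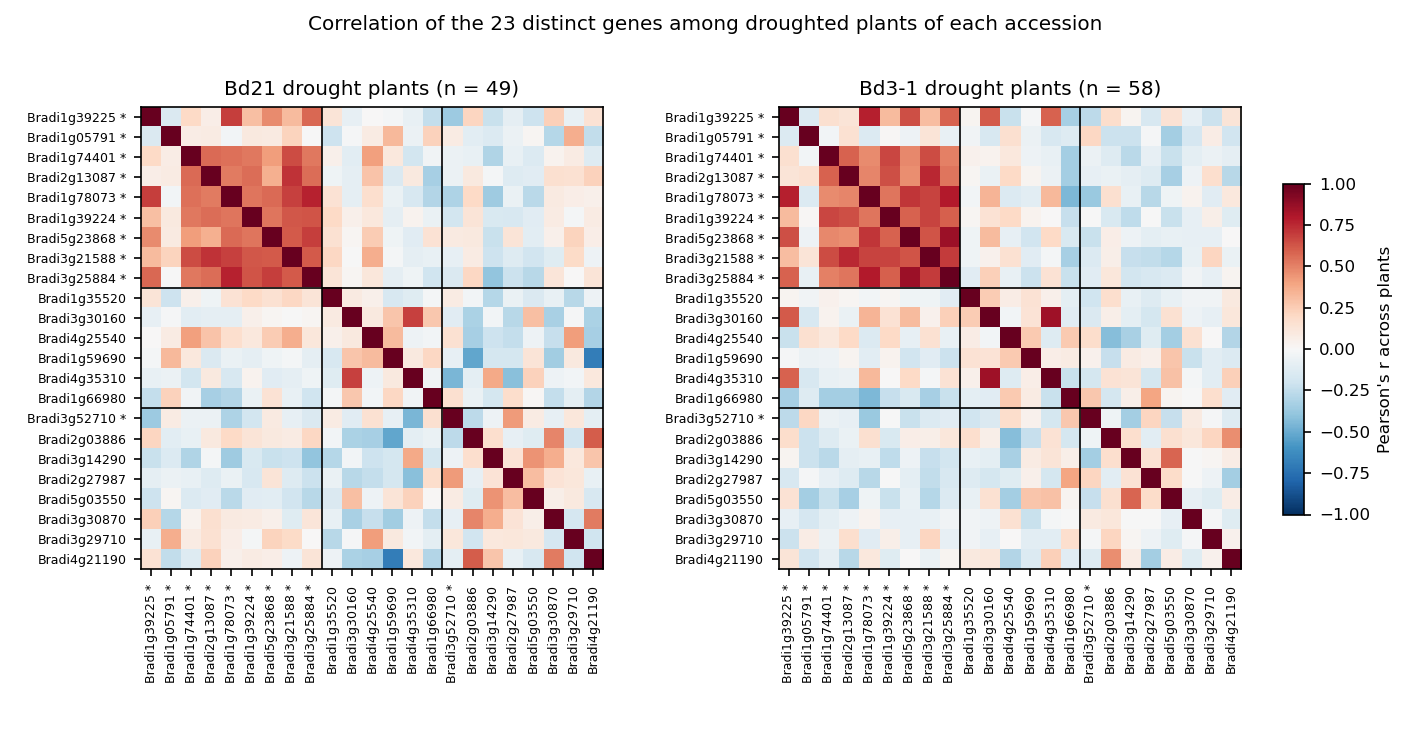
Pearson's r between the 23 distinct genes on the log2 scale among droughted plants of Bd21 (left, n = 49) and of Bd3-1 (right, n = 58), with lines between falling genes with shared reads (asterisk), falling genes with whole counts and rising genes. Warm colours fill most of the upper left block in both accessions, with Bradi1g05791 apart, and 22 and 24 of its 36 relations were called, and the strongest negative value is that of Bradi1g59690 with Bradi4g21190 in Bd21, -0.69.

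Outside this block, Bradi3g30160 and Bradi4g35310 were the only pair called positive in all 4 groups, against 1.27% of the relations of genes with whole counts over single groups. Their r was 0.80 (rho = 0.80) under control and 0.68 (0.69) under drought in Bd21, and 0.84 (0.77) and 0.85 (0.84) in Bd3-1, each with a permutation p of 1e-05 and an adjusted p of 0.0027. Without the 2 farthest libraries r was 0.77, 0.60, 0.79 and 0.82, and within batches it ran from 0.50 to 0.97. These were also the genes with a slope in droughted Bd3-1. Bradi4g35310 was more alike still to genes outside the set. The nearest by its lowest r over the groups was Bradi1g24760, with 0.93 to 0.94, and for Bradi3g30160 it was Bradi3g42618, with 0.79 to 0.88. Estimates of these outside genes were not whole in 99.5% and 99.1% of libraries, against 7.94% for Bradi4g35310 and 0.935% for Bradi3g30160. Bradi1g19220, with whole counts, had r of 0.76 to 0.87 with Bradi3g30160.

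Of the rising and falling genes with whole counts, Bradi1g59690 and Bradi4g21190 varied in opposite directions in droughted Bd21 (r = -0.69, rho = -0.67, permutation p = 1e-05, adjusted p = 0.0027). Without the 2 farthest libraries r was -0.66, and within batches it ran from -0.87 to -0.53. The r was -0.42 (rho = -0.29, adjusted p = 0.0847) in Bd21 control plants, -0.45 (rho = -0.46, adjusted p = 0.0289, -0.44 without the 2 farthest libraries and -0.77 to -0.15 within batches) in Bd3-1 control plants and -0.14 (rho = -0.08, adjusted p = 0.68) in droughted Bd3-1. The difference between the groups was not tested. In droughted Bd21 Bradi4g21190 also went with the rising gene Bradi2g03886 (r = 0.60, rho = 0.54, permutation p = 2e-05, adjusted p = 0.0042, 0.55 without the 2 farthest libraries and 0.25 to 0.63 within batches), as it did in droughted Bd3-1 (r = 0.47, rho = 0.48, permutation p = 0.00022, adjusted p = 0.0193, 0.46 without them and 0.40 to 0.75 within batches). The gene nearest to Bradi1g59690 in all groups was Bradi1g07495, with r of 0.76, 0.87, 0.68 and 0.58 in the order above.

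The genes that the study names as drought responsive were examined apart from the 24. Of 13 loci that its text names for abscisic acid and drought, grouped here and chosen by the study on these plants, 12 rose and 1 fell in Bd21 and 12 rose in Bd3-1, with median log2 fold changes of 2.07 and 1.67, and 4 of 4 other loci it names, orthologs of RAB18 (a dehydrin; Bradi1g37410 and Bradi3g43870), ASR5 (Bradi4g24650) and IAR4 (Bradi1g44480), rose in each, with medians of 2.42 and 2.63. The median over all tested genes was 0.01 in each accession. The interaction passed for 4 of the 13 loci and for 0 of the other 4, against 1.78% of all tested genes. The study chose these loci on these plants, so nothing is read from these counts. None of these loci is among the 24, and the study's longer gene lists were not compared.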

How the data were processed

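Leaf RNA of 214 plants was sequenced from the 3′ end of transcripts. The authors trimmed reads with Trimmomatic 0.39 and cutadapt 2.10, aligned them with Bowtie2 2.4.0 to Bd21 primary transcripts and the plastome, collapsed reads with the same gene and molecular identifier, and deposited RSEM 1.3.3 expected counts per transcript, with no normalization. Versions are those of the submitters' processing notes.

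Libraries were grouped by title. The members and lists were chosen with earlier results of these data known. CPM used column sums. A ratio's SE came from the SDs and n of both groups. For tests, expected counts were rounded, rows with a count in more than 10 libraries were kept, and edgeR 4.0.16 (R 4.3.3) was fitted with TMM factors and quasi-likelihood F-tests on 213 libraries. An effect's SE is its size divided by the square root of F. DESeq2 1.42.0 was an alternative for the accession effect. Correlations and tables used Python 3.11.15, numpy 2.4.6, pandas 2.3.3 and scipy 1.17.1. On simulated counts, the accession test recovered 100% of 100 genes changed by 1.5-fold and of 100 changed by 2-fold among 25924, and the slope test 66% and 91% among 25914.

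Genes named were the 15 rising and 15 falling with the largest Bd21 ratio, those the study names, neighbours in locus order, the 3 in each direction with the largest accession effect, those with the largest called slope in droughted Bd21, and the 2 nearest each threshold. Genes not whole in at least 20% of libraries were called uncertain. Replicates are separate plants. Alternatives are given in the closing section. No sequences are shown, since no reference used here holds these loci.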

Additional observations from a re-analysis of the deposited data

How the results depend on the processing

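The set of genes depends on the rule's settings. With TMM-scaled CPM 4 genes rose and 18 fell, of which 3 and 12 were among the 24. The median log2 ratio over genes was 0.07 in Bd21 and 0.05 in Bd3-1 with CPM, and 0.00 in each with TMM scaling. With group medians 4 rose and 14 fell, 3 and 7 of them shared. A mean of at least 10 CPM left 5 rising genes, a Bd21 threshold of 0.8 left 1 rising and 2 falling, and a Bd3-1 threshold of 0.15 left 1 and 9. Alternatives chosen after seeing the data left out single libraries: without Bd21 control replicate 1, 8 rose and 10 fell, without Bd3-1 control replicate 13, 6 and 18, and without the deepest library 9 and 16. The accession effect passed for 12083 of all genes, and for 7733 under edgeR's filterByExpr, which tests fewer genes. Its direction and call were kept for 24 of the 24 genes under DESeq2, RLE factors, no filter, batch terms and with replicate 59.

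The slope in droughted Bd3-1 passed for 1764 genes, and for 893 with the study's score. In Bd21 control plants it passed for 110, and for 0 with the study's score, 62 with batch and plate as terms, 194 under filterByExpr, 73 without Bd21 control replicate 1 and 105 without Bd3-1 control replicate 13. In Bd3-1 control plants it passed for 389, for 29 with the study's score, for 217 without Bd3-1 control replicate 13 and for 386 without Bd21 control replicate 1. Bradi4g21190 passed in droughted Bd21 with the study's score (0.42) and under filterByExpr (0.40). The cause of these changes was not tested.

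The labels do not say that plants with the same replicate number form a pair. Over 300 same-numbered pairs the correlation of deviations averaged 0.09, from -0.23 to 0.41. It was over 0.1 for 142 of them, and no average for pairs with unlike numbers is given. With the number as a block, with dispersions from the fit without it, 22 genes passed in Bd21 control plants and 223 in Bd3-1 control plants. The block ended the calls of Bradi3g30870 (accession effect -0.21, adjusted p = 0.0559), Bradi4g35310 in droughted Bd3-1 (-0.64, adjusted p = 0.117) and Bradi1g39224 with Bradi2g13095 (-1.60, adjusted p = 0.0815) and Bradi1g39225 (-1.23, adjusted p = 0.204) in Bd21 control plants, brought in that of Bradi4g21190 in droughted Bd21 (0.57, adjusted p = 0.0183), and changed no other call of the 24 genes, all from edgeR. The 24 genes had a median of 21.4 counts per library, which limits the precision within a group.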
